A study of Mus musculus with 8 samples.

Results

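The small proline-rich protein (Sprr) genes were followed in the uterus of mice given bisphenol A (BPA), Korean red ginseng (KRG), both or neither. The 9 members were Sprr1a, Sprr2a2, Sprr2a3, Sprr2b, Sprr2d, Sprr2e, Sprr2f, Sprr2g and Sprr2h, out of 23282 gene rows in the count files and 16 rows whose symbol starts with Sprr. They were chosen by symbol with their levels in these uterus libraries known, so those levels and the ratios between them are a description and carry no test. The libraries were made with a QuantSeq kit, which reads a short stretch near the 3′ end of each polyadenylated transcript, so that a count stands for a transcript whatever its length.

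All animals were female CD-1 mice, an outbred stock, 6 weeks old, which had been ovariectomized and left for a purification period of 1 week. The 4 uterus groups then received, by mouth for 7 days, BPA at 200 mg/kg/day with KRG at 1.2 g/kg/day, BPA at 200 mg/kg/day, KRG at 1.2 g/kg/day, or neither (OVX-control). BPA is a monomer of polycarbonate plastics with weak estrogen receptor binding, and removal of the ovaries takes away the main source of estrogen in every group, the control included. Each group is 1 library, 4 livers were sequenced under the same treatments, and the labels used here give neither the number of animals behind a library nor what the controls received in place of a treatment. The question put by the series is how ginseng alters what BPA does to these tissues.

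Small proline-rich proteins are precursors of the cornified envelope, a protein shell that transglutaminases cross-link beneath the plasma membrane of squamous epithelial cells. Their genes lie side by side in the epidermal differentiation complex, with those of involucrin, loricrin and the late cornified envelope proteins. In the mouse uterus, estrogen is known to induce several Sprr2 genes in the epithelium.

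The uterus libraries held 14797515 counts with BPA and KRG, 13721914 with BPA, 12990417 with KRG and 13382974 in control. Levels are given as CPM, a gene's counts scaled to a common library total, and 1 count was worth 0.0676 to 0.0770 CPM. Hoxa11, which patterns the uterus, was present in every uterus library, at 74.8 to 128 CPM. The smooth muscle myosin Myh11, which is not particular to the uterus, stood at 362 to 519 CPM. Markers of another organ lining stood apart. Summed over 11 urothelial genes, which are typical of the bladder lining, the level was 10677 CPM with both treatments, 6186 with BPA, 78.1 with KRG and 360 in control. Whether bladder tissue was carried into these libraries was not tested, and every Sprr value with BPA below is to be read beside that. Neutrophil genes set the KRG library apart, with 8 listed genes summing to 204 CPM with both treatments, 206 with BPA, 1281 with KRG and 334 in control. The part of the neutrophil difference in the Sprr levels was not tested, and the urothelial genes are set against the Sprr genes within each library further on. In a bulk sample, fewer cells of a type and less RNA per cell cannot be told apart.

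The members lie within 235 kb on chromosome 3 in the mouse build GRCm38.p6, between chr3:92250647 and chr3:92485881, in RefSeq's annotation. Sprr1a is at chr3:92483954-92485881 on the minus strand, and the Sprr2 genes run on the plus strand from Sprr2a2 (chr3:92250647-92257304) and Sprr2a3 (chr3:92285304-92289264) through Sprr2b (chr3:92316705-92318085) to Sprr2f (chr3:92365187-92366442) and Sprr2h. RefSeq lists Sprr2g (chr3:92373915-92375229) as a transcribed pseudogene. The promoter windows of 4 members follow, since 3 of them belong to genes far above control with BPA (Sprr1a, Sprr2a2 and Sprr2b) and 1 to a gene that was not (Sprr2f). Each is RefSeq sequence of GRCm38.p6 from 250 bases before the annotated start to 50 bases after it, on the gene's own strand. Capitals mark TGANTCA (the binding motif of AP-1), ATTTGCAT (the octamer motif) and TATAAA (the TATA box), searched on both strands.
Sprr1a (chr3:92485832-92486131, minus strand): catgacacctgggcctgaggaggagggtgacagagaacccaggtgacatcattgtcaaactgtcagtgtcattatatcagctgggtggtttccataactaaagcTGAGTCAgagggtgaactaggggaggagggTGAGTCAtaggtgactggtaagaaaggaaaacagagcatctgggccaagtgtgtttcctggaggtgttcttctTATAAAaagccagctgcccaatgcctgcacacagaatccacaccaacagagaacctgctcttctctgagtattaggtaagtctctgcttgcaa
Sprr2a2 (chr3:92250397-92250696, plus strand): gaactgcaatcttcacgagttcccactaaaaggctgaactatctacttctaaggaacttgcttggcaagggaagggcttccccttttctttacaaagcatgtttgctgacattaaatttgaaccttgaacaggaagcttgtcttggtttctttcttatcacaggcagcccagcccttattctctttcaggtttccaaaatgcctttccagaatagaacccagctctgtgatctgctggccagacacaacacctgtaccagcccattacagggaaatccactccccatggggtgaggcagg
Sprr2b (chr3:92316455-92316754, plus strand): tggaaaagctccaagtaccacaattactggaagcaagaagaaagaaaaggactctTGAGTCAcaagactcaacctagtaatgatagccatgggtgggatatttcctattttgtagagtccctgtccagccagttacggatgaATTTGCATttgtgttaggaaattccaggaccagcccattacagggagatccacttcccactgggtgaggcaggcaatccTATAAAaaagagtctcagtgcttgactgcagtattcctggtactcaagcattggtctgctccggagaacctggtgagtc
Sprr2f (chr3:92364937-92365236, plus strand): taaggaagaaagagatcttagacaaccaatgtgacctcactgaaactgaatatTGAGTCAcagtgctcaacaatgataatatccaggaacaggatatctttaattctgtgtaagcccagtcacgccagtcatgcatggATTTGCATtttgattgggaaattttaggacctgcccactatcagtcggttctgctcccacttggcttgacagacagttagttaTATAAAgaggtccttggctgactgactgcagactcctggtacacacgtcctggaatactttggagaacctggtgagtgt

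Of the 9 members, 8 had a promoter in the RefSeq table. TGANTCA was in 6 of these 8 windows, against 7.81% of all 32851 promoter windows of the same length. ATTTGCAT was in 5 of 8, against 1.74% of all windows, and TATAAA in 6 of 8, against 13.6%. No 2 of these matches overlapped in the windows printed above. With the first base of the transcript as position 1, TGANTCA began at position -195 in Sprr2b and at -197 in Sprr2f, ATTTGCAT at -108 and -112, and TATAAA at -29 in both. Sprr1a had TGANTCA at positions -146 and -116 and TATAAA at -43, and no ATTTGCAT. Sprr2a2 and Sprr2a3 held none of the 3 motifs in these windows. Neither a full estrogen response element (its palindromic consensus with 3 free bases in the middle, in 0.07% of all windows) nor the motif of GATA factors, searched here as AGATAA (11.2% of all windows), was found in the 8 windows. Sprr2b and Sprr2f carried the same 3 motifs in the same order. So did Sprr2d, Sprr2e and Sprr2h, which had 0 to 8 counts in a uterus library, and the non-members Sprr2i and Sprr2k. Most of the 8 windows belong to the Sprr2 subfamily, so the shares above do not count unrelated windows. A match describes the letters of a window and is not a binding site.

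The Sprr2a copies shared long stretches in these windows and at their 3′ ends. The windows of Sprr2a2 and Sprr2a1, a copy that is not a member, were identical over all 300 bases, and those of Sprr2a2 and Sprr2a3 shared a run of 272 bases. Between Sprr2a2 and Sprr2b the longest shared run was 18 bases, which begins at position 6 in Sprr2a2 and at -80 in Sprr2b. Level with that run, the place of TATAAA in Sprr2b (position -29) lies past the end of the Sprr2a2 window, so the window depends on the annotated start and does not cover it. Within the last 300 bases of the GENCODE M21 transcripts, every 50-base stretch of Sprr2a2 was also found in another gene, as were 71.1% of those of Sprr2a3 and 19.1% of those of Sprr2b. The shared stretches of Sprr2b were those of the 3 Sprr2a copies. Sprr1a, Sprr2d, Sprr2e, Sprr2f, Sprr2g and Sprr2h shared none. In the counts, Sprr2a1 was at 0 in all 4 uterus libraries, and Sprr2a2 had 2.13 counts per count of Sprr2a3 with both treatments, 2.14 with BPA, 3.6 with KRG and 2.14 in control. How reads with several matches were assigned is not given in the sources used here, so Sprr2a2 and Sprr2a3 are best read together and as uncertain.

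Sprr1a, a cornified envelope precursor, was the most abundant member in the libraries given BPA. It stood at 1156 CPM with BPA and KRG, 701 CPM with BPA, 8.08 CPM with KRG and 54.5 CPM in control. Both libraries given BPA were high, and the KRG library was the lowest of the 4. By rank among all gene rows, Sprr1a was 74th with both treatments and 146th with BPA, against 9464th with KRG and 3278th in control.

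Sprr2a2, an envelope precursor of the Sprr2 subfamily, was at 724 CPM with both treatments, 461 CPM with BPA, 2.77 CPM with KRG and 31.8 CPM in control. The copy Sprr2a3 was at 340 CPM with both treatments, 215 CPM with BPA, 0.770 CPM with KRG and 14.9 CPM in control. Their neighbour Sprr2b was at 26.3 CPM with both treatments, 15.96 CPM with BPA, 0.308 CPM with KRG and 1.87 CPM in control. In KRG these values rest on few reads, 10 for Sprr2a3 and 4 for Sprr2b. The order of the 4 libraries was the same for these genes as for Sprr1a: both treatments, BPA, control, KRG.

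Sprr2f, an Sprr2 gene of the same cluster, had another order. It stood at 40.3 CPM with both treatments, 53.0 CPM with BPA, 48.9 CPM with KRG and 90.6 CPM in control, so that control was the highest and the other libraries lay within 1.32-fold of each other. The pseudogene Sprr2g stood at 1.69 CPM with both treatments, 2.84 CPM with BPA, 2.77 CPM with KRG and 1.42 CPM in control, that is 25, 39, 36 and 19 counts.

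The other members were at the limit of detection. Sprr2d had 1 count with both treatments, 0 with BPA, 7 with KRG and 1 in control. Sprr2e had 0 counts with both treatments, 1 with BPA, 8 with KRG and 2 in control. With both treatments against KRG, Sprr2d was 7.97-fold lower with a wide interval (1.02 to 359), and Sprr2e at least 3.04-fold lower, taking its 0 as 3 counts in that library and the 8 counts as exact. For both, KRG held the most counts, in the library that also held the most neutrophil transcripts, whose part was not tested. Sprr2h was at 0 in all 4 libraries, and a count of 0 allows up to 0.203 CPM with both treatments, 0.219 with BPA, 0.231 with KRG and 0.224 in control, at 3 counts and for counting error only.

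**Figure D1:**
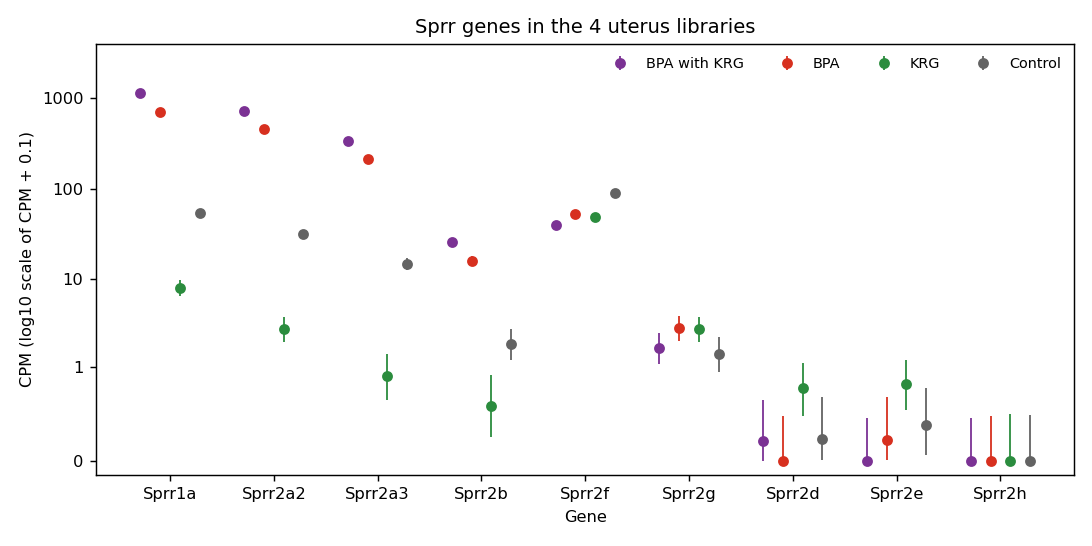
CPM of the 9 Sprr genes in the 4 uterus libraries (vertical axis, log10 scale of CPM + 0.1), with exact Poisson 95% intervals, or up to 3 counts where the count is 0, that address counting error only. Sprr1a, Sprr2a2, Sprr2a3 and Sprr2b are at 26.3 CPM or more with BPA and KRG and at 8.08 CPM or less with KRG, while Sprr2f stays between 40.3 and 90.6 CPM.

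The make-up of the Sprr counts differed between libraries. Counts of the 9 members summed to 33868 with both treatments, 19886 with BPA, 841 with KRG and 2613 in control, or 2289, 1449, 64.7 and 195.2 CPM in the same order. Sprr2f made up 1.76% of them with both treatments (95% Clopper-Pearson interval 1.62 to 1.91), 3.66% with BPA (3.40 to 3.93), 75.5% with KRG (72.5 to 78.4) and 46.4% in control (44.5 to 48.4). Sprr1a made up 50.5% with both treatments, 48.4% with BPA, 12.49% with KRG and 27.9% in control. Sprr2f was the largest contributor where BPA was not given, and Sprr1a where it was. The intervals treat reads as independent and cover counting error only, and the protocol names no molecular identifiers.

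**Figure D2:**
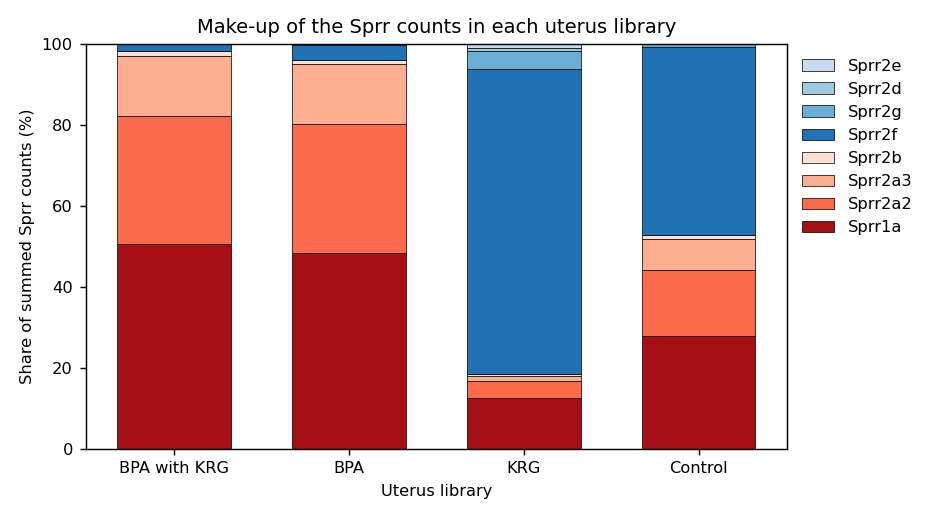
Share of the summed Sprr counts (vertical axis, percent) taken by each gene in each uterus library. Sprr2f takes 1.76% with BPA and KRG and 3.66% with BPA, against 75.5% with KRG and 46.4% in control; Sprr2h has no counts and is not drawn.

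Ratios between libraries were taken in 4 comparisons. A gene was counted as 2-fold different on the scale of log2(CPM + 1), among genes whose CPM averaged 1 or more in the 4 uterus libraries. Of the members, 6 passed this minimum, from Sprr2g with a mean of 2.18 CPM upward, and Sprr2e (0.210 CPM), Sprr2d (0.170 CPM) and Sprr2h did not. Sprr2b passed it through the BPA libraries, where it is high. The members were chosen on these values, and nothing is read from their counts. Intervals below are exact Clopper-Pearson intervals at 95% of the ratio of CPM. They compare single libraries, not treatments, and there is no replicate check.

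With BPA against control, 4 members were at least 2-fold higher and 0 lower, where 3.88% of the 14166 genes past the minimum were higher and 3.01% lower. Sprr2a2 was 14.5-fold higher (13.2 to 16.1) and Sprr2a3 14.5-fold (12.53 to 16.8). Sprr1a was 12.9-fold higher (11.9 to 13.9) and Sprr2b 8.54-fold (5.64 to 13.5). Sprr2f was lower by 1.71-fold (1.56 to 1.88), short of 2-fold. Sprr2g had a plain ratio of 2.00 (1.13 to 3.67) and was within 2-fold with the pseudocount of 1 CPM (log2 ratio 0.67). Over the 9 members together, the summed CPM was 7.42-fold higher with BPA (7.13 to 7.73).

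Sprr1a, Sprr2a2, Sprr2a3 and Sprr2b were also the members past 2-fold with BPA and KRG against KRG, a pair that shares no library with the first. Here 4 members were higher and 0 lower, beside 8.36% of genes higher and 5.89% lower. Sprr1a was 143-fold higher (118 to 175) and Sprr2a2 261-fold (189 to 373). The interval was wide for Sprr2a3, at 442-fold (240.3 to 923), and for Sprr2b, at 85.4-fold (33.1 to 315), since their KRG counts are low. Sprr2f was 1.21-fold lower (1.08 to 1.36) and Sprr2g 1.64-fold lower, with an interval that spans 1 (0.958 to 2.85). The summed CPM of the 9 members was 35.4-fold higher (33.0 to 37.9).

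With KRG against control, 4 members were at least 2-fold lower and 0 higher, where 2.58% of genes were lower and 2.6% higher. Sprr2a3 was 19.3-fold lower (10.3 to 40.9), Sprr2a2 11.5-fold (8.15 to 16.6), Sprr1a 6.74-fold (5.49 to 8.35) and Sprr2b 6.07-fold (2.09 to 24.0). Sprr2f was 1.85-fold lower (1.68 to 2.04). Sprr2g had a plain ratio of 1.95 (1.09 to 3.603). The call of Sprr2b rests on 4 counts with KRG against 25 in control: its log2 ratio was -1.13 with the pseudocount of 1 CPM and -0.37 with 5 CPM, which leaves 3 members lower. In this comparison the median log2 ratio of all genes past the minimum was -0.12, and scaling by trimmed means (TMM) moved it by 0.12, with 3.47% of genes then higher and 1.98% lower.

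With BPA and KRG against BPA, 0 members passed 2-fold in either direction, beside 1.67% of genes higher and 3.01% lower (2.05% and 2.39% with DESeq2 scaling). The 4 genes were nonetheless above BPA by near-equal amounts: Sprr1a 1.65-fold (1.61 to 1.69), Sprr2a2 1.57-fold (1.52 to 1.62), Sprr2a3 1.58-fold (1.51 to 1.66) and Sprr2b 1.65-fold (1.39 to 1.95). Sprr2f was below BPA by 1.32-fold (1.18 to 1.47) and Sprr2g by 1.68-fold, with an interval that spans 1 (0.993 to 2.90). Relative to the library without KRG, the 4 genes were thus higher with KRG where BPA was given and lower where it was not.

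**Figure D3:**
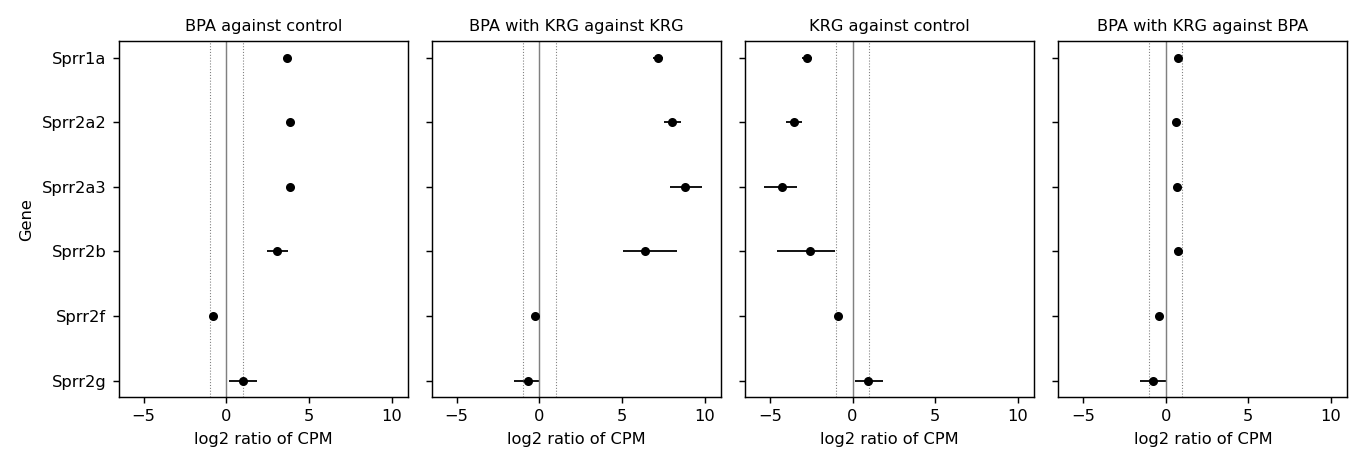
log2 ratio of CPM (horizontal axis) of the 6 Sprr genes that averaged 1 CPM or more in 4 comparisons of uterus libraries, with 95% counting intervals; dotted lines mark 2-fold. Sprr1a, Sprr2a2, Sprr2a3 and Sprr2b are 8.54- to 14.5-fold higher with BPA against control and 6.07- to 19.3-fold lower with KRG against control, while Sprr2f is lower in each panel.

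The 7 other Sprr genes in the files held 5 counts in all in uterus. Sprr3, an envelope precursor of internal squamous epithelia, had 3 counts and Sprr2k had 2, in the BPA library. Sprr1b, Sprr2a1, Sprr2i, Sprr2j-ps and Sprr4 had none in any of the 8 libraries. Along the chromosome, genes with more counts alternated with genes at or near 0. Sprr2a2, Sprr2a3 and Sprr2b were followed by Sprr2d and Sprr2e, which were near 0. Then came Sprr2f and Sprr2g, the latter with 19 to 39 counts, then genes at or near 0 from Sprr2h to Sprr3, and then Sprr1a. With KRG the step after Sprr2b was absent, at 10 counts of Sprr2a3, 4 of Sprr2b, 7 of Sprr2d and 8 of Sprr2e. Beyond the cluster, Ivl (involucrin, the envelope protein to which small proline-rich proteins are cross-linked) stood at 620.2 CPM with both treatments, 322 CPM with BPA, 0.924 CPM with KRG and 10.54 CPM in control.

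**Figure D4:**
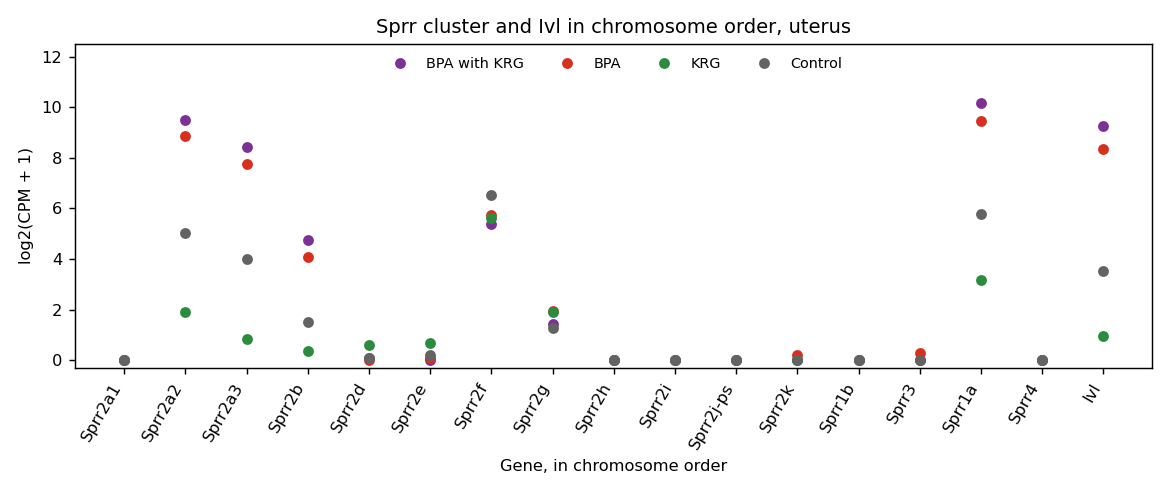
log2(CPM + 1) of the Sprr genes in the files and of Ivl (vertical axis) in their order on chromosome 3 (horizontal axis, not to scale), for the 4 uterus libraries. Sprr2a2, Sprr2a3, Sprr2b, Sprr1a and Ivl share one order of the libraries, with BPA and KRG highest and KRG lowest, and Sprr2f between them is highest in control.

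By the median of single genes, the cornified envelope list did not stand with the Sprr genes. Its summed CPM did share the order of Sprr1a, at 645 with both treatments, 373 with BPA, 80.4 with KRG and 117 in control. Where BPA was given, most of that sum was Ivl. Of 40 envelope and epidermal differentiation complex genes in the files, 25 had no count in uterus and 6 passed the minimum. Of these 6, Ivl was at least 2-fold higher with BPA against control, 2 were lower, and their median log2 ratio was -0.56, beside 0.04 for all genes past the minimum. The shares of all genes in that comparison were 3.88% higher and 3.01% lower. With both against KRG, 3 of the 6 were higher and 2 lower, with a median of 0.27, where 8.36% of all genes were higher and 5.89% lower. Krtdap, 1 of these 3, passed the minimum only through the libraries given BPA. Loricrin (Lor), the main envelope protein of epidermis, was at 1.15 CPM or less in every library. Lgals7, a galectin of stratified epithelia, stood at 6.96 CPM with both treatments, 19.1 CPM with BPA, 40.5 CPM with KRG and 63.8 CPM in control. The transglutaminases Tgm1 and Tgm3, which cross-link the envelope, had at most 5 and 3 counts in a library. Among 9 cross-linking and barrier genes past the minimum, 1 was higher and 1 lower with BPA: Evpl (envoplakin, an envelope scaffold) at 79.5 CPM with both, 42.3 with BPA, 11.9 with KRG and 18.2 in control, and Spink5, a protease inhibitor of squamous epithelium, at 3.65, 24.0, 18.4 and 64.1 CPM in the same order.

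Keratins of stratified squamous epithelium had a median near that of all genes with BPA. Of 9 past the minimum, 0 were at least 2-fold higher with BPA against control and 1 was lower, with a median log2 ratio of 0.03. Over all genes past the minimum, 3.88% were higher and 3.01% lower, with a median of 0.04. With both against KRG, 2 of the 9 keratins were higher and 2 lower, with a median of 0.56. In that comparison 8.36% of all genes were higher and 5.89% lower, with a median of 0.07. Krt5, a keratin of basal cells, was at 92.0 CPM with both treatments, 88.4 CPM with BPA, 51.9 CPM with KRG and 86.1 CPM in control. Its partner Krt14 was at 3.38 CPM with both treatments, 33.6 CPM with BPA, 29.8 CPM with KRG and 60.6 CPM in control. Krt6a, a keratin of stressed or proliferating epithelium, was at 0.879 CPM with both treatments, 5.61 CPM with BPA, 0.539 CPM with KRG and 31.5 CPM in control, its highest. Krt15 was highest with both treatments, at 1063 CPM, with 627 CPM with BPA, 440 CPM with KRG and 366 CPM in control. The 2 keratins higher with both against KRG were Krt15 and Krt4 (log2 ratios 1.27 and 2.62), and the 2 lower were Krt14 and Krt17 (-2.81 and -2.25).

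The summed urothelial markers had the same order of libraries as Sprr1a. Of 11 listed and all past the minimum, 10 were at least 2-fold higher with BPA against control and 10 with both against KRG, with 0 lower in either (median log2 ratios 4.0 and 6.05, beside 0.04 and 0.07 for all genes past the minimum), and 7 were lower with KRG against control. Over all genes past the minimum, 3.88% were higher and 3.01% lower with BPA against control, and 8.36% and 5.89% with both against KRG. With KRG against control, 2.58% of all genes were lower. Upk3a, a uroplakin of the bladder surface plaques, was at 2688 CPM with both treatments, 1279 CPM with BPA, 7.08 CPM with KRG and 67.8 CPM in control. None of the 11 was at 0 in any library. Upk3b, Krt20 and Foxa1, which count among the 10 in both comparisons, passed the minimum only through the libraries given BPA. The list as a whole was not high in the KRG library, where Upk2 was at 1.00 CPM and Krt20 at 0.462 CPM.

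Set against the summed urothelial counts within each library, the 4 Sprr genes varied less than in CPM. Counts of Sprr1a, Sprr2a2, Sprr2a3 and Sprr2b per count of the 11 urothelial genes were 0.210 with both treatments (0.208 to 0.213), 0.225 with BPA (0.222 to 0.229), 0.153 with KRG (0.128 to 0.181) and 0.286 in control (0.269 to 0.304). The highest of these ratios was 1.87 times the lowest, whereas the summed CPM of the same 4 genes was 188-fold apart between the library given both and the KRG library. The size and the order depend on the marker. Sprr1a per count of Upk3a was 0.430 with both treatments, 0.548 with BPA, 1.14 with KRG and 0.804 in control, 2.65-fold apart and highest with KRG. In the KRG library, Upk1a, another uroplakin, held 562 counts of the urothelial sum. Counts of Sprr2f per urothelial count were 0.00377 with both treatments, 0.00856 with BPA, 0.626 with KRG and 0.252 in control, 166-fold apart. Smooth muscle and stromal fibroblast markers moved less than the urothelial genes but were not flat. Of 10 each, 1 and 2 were higher and 0 lower with BPA against control, where 3.88% of all genes were higher and 3.01% lower. Their median log2 ratios were 0.35 and 0.30, beside 0.04 for all genes past the minimum. The genes past 2-fold were Actg2 (log2 ratio 1.10), Col1a1 (1.36) and Col1a2 (1.44).

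**Figure D5:**
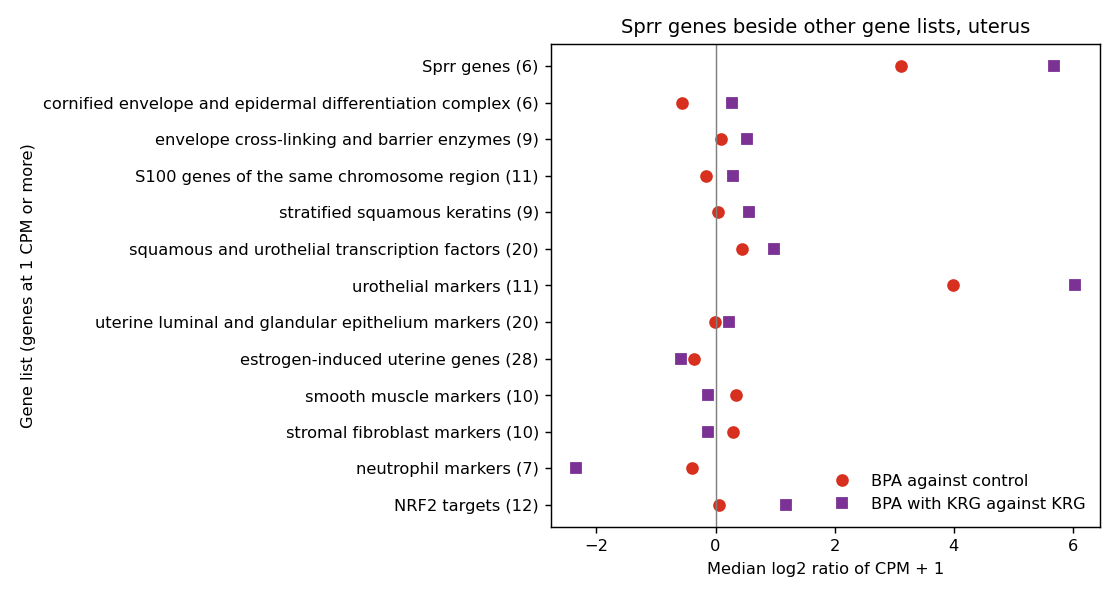
Median log2 ratio of CPM + 1 (horizontal axis) of the Sprr genes and of other gene lists, with the number of genes at a mean of 1 CPM or more in brackets, for BPA against control and for BPA with KRG against KRG in uterus. The urothelial markers (4.0 and 6.05) and the Sprr genes (3.11 and 5.69) lie to the right, and the median of the squamous keratins is 0.03 and 0.56.

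Of 20 transcription factors of squamous and urothelial cells past the minimum, 4 were at least 2-fold higher with BPA against control and 0 lower (median log2 ratio 0.44). Over all genes past the minimum, 3.88% were higher and 3.01% lower (median 0.04). With both against KRG, 10 of the 20 were higher and 0 lower (median 0.98), where 8.36% of all genes were higher and 5.89% lower (median 0.07). Grhl3, counted in both, and Elf5, counted in the second, passed the minimum only through the libraries given BPA. Trp63, a master regulator of stratified epithelia, was at 25.4 CPM with both treatments, 17.1 CPM with BPA, 3.77 CPM with KRG and 6.80 CPM in control. Grhl3, a grainyhead factor of barrier-forming epithelia, was at 6.76 CPM with both, 2.26 CPM with BPA, 0.308 CPM with KRG and 0.299 CPM in control. Klf4, a factor of differentiating epithelia, was within 2-fold in every comparison, at 56.0 to 78.3 CPM.

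By the median, estrogen-induced uterine genes did not follow Sprr1a. Of 28 past the minimum, 2 passed 2-fold upward and 7 downward with BPA against control, with a median log2 ratio of -0.36. Over all genes past the minimum, 3.88% were higher and 3.01% lower, with a median of 0.04. Klk1 and Ccnb2, the 2 that were higher, passed the minimum only through the libraries given BPA. With both against KRG, 5 were higher and 7 lower (median -0.58), where 8.36% of all genes were higher and 5.89% lower. Cyp26a1, 1 of these 5, passed the minimum only through the libraries given BPA. Some single genes did have the order of Sprr1a, among them Wnt4 at 40.4 CPM with both treatments, 28.3 with BPA, 12.3 with KRG and 18.7 in control. Ltf (lactotransferrin) stood at 82.0 CPM with both treatments, 122 CPM with BPA, 212 CPM with KRG and 811 CPM in control. Padi1, a peptidylarginine deiminase, stood at 32.1 CPM with both treatments, 35.5 CPM with BPA, 62.1 CPM with KRG and 107 CPM in control. The receptors Esr1 and Pgr were at 88.5 and 49.3 CPM with both treatments, their lowest, and at 194 and 121 CPM in control, their highest. Like Sprr2f, these 4 genes were highest in control and lowest with both treatments. Markers of uterine epithelium were mixed: of 20 past the minimum, 4 were higher and 3 lower with BPA against control (median log2 ratio -0.01). With both against KRG, 9 were higher and 3 lower (0.23). The shares of all genes are those given above for the estrogen-induced genes. Krt7, a keratin of simple epithelia and urothelium, was at 398 CPM with both treatments, 257 CPM with BPA, 37.2 CPM with KRG and 35.0 CPM in control. The tight junction gene Cldn4 was also higher in both comparisons (log2 ratios 1.80 and 2.62), and Prap1 was higher with BPA against control (2.02) and lower with both against KRG (-1.01). Foxa2 of the glands was at 16.8 CPM with both treatments, 17.3 CPM with BPA, 41.3 CPM with KRG and 62.6 CPM in control, and Epcam lay between 141 and 224 CPM.

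Among NRF2 targets, genes of the antioxidant response, 4 of 12 were higher and 2 lower with BPA against control (median log2 ratio 0.06). With both against KRG, 6 were higher and 2 lower (1.18). Over all genes past the minimum, 3.88% were higher and 3.01% lower with BPA against control (median 0.04). With both against KRG, 8.36% of all genes were higher and 5.89% lower (0.07). These shares also stand beside the S100 counts below. Gstm1, a glutathione transferase, was at 2540 CPM with both treatments, 1608 CPM with BPA, 91.7 CPM with KRG and 143 CPM in control. S100a6, a calcium-binding protein encoded near the Sprr cluster, was at 5968 CPM with both treatments, 3619 CPM with BPA, 713 CPM with KRG and 1001 CPM in control. Of 11 S100 genes past the minimum, 2 were higher and 0 lower with BPA against control, with a median log2 ratio of -0.16. With both against KRG, 3 were higher and 2 lower, with a median of 0.29. S100a3, 1 of these 3, passed the minimum only through the libraries given BPA.

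Genes with the pattern most like that of the summed members were taken by Euclidean distance between centred log2(CPM + 1) values over the 4 uterus libraries. The 10 nearest, at distances of 0.31 to 0.68 where the median gene was at 4.14, were Adgrf4, Sptssb, Paqr5, Fer1l4, Fa2h, Syt8, Aqp3, Uchl1, P2rx1 and Gstm1. Adgrf4, Fa2h, Aqp3 and P2rx1 passed the minimum only through the libraries given BPA. Adgrf4, an adhesion G protein-coupled receptor, was at 37.1 CPM with both treatments, 23.5 CPM with BPA, 0.385 CPM with KRG and 2.17 CPM in control. Aqp3, a water and glycerol channel, was at 85.9 CPM with both treatments, 42.6 CPM with BPA, 0.616 CPM with KRG and 3.14 CPM in control. Of the members themselves, Sprr2b lay at 0.62, with 6 other genes nearer, and Sprr1a at 1.51, with 61 nearer. Sprr2a2 and Sprr2a3 lay at 2.02, each with 120 nearer, while Sprr2f lay at 4.61, farther than 12346 other genes. The sum is a mixture, in which Sprr2f made up 75.5% of the counts with KRG and 46.4% in control. Its pattern is thus not that of Sprr1a, and the 10 genes are nearest to the mixture.

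In liver the Sprr genes were near 0. All 9 members held 12 counts over the 4 liver libraries: 0 with both treatments, 1 with BPA, 5 with KRG and 6 in control. The highest single values were 4 counts of Sprr1a with KRG and 4 counts of Sprr2a2 in control. No ratio between liver libraries was taken from so few counts, and no difference was tested.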

How the data were processed

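RNA of 4 uterus and 4 liver libraries was sequenced with a QuantSeq 3′ kit from 500 ng of total RNA, per the labels' protocols. The authors deposited raw counts per gene symbol, 1 file per library. Bowtie2, edgeR and mm10 are named in the submitters' processing notes, without versions or roles; for the counter, strand and multiply matching reads, the setting is not given in the sources used here. Library totals ran from 12372073 to 15290950 counts. The ribosomal RNA precursor Rn45s took 8.62% to 11.3% of the uterus counts and stayed in the totals. Of the gene rows, 44 carry a symbol that another row has too; each member has a single row.

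CPM were computed from column totals, with a pseudocount of 1 CPM for log2 ratios, a minimum mean of 1 CPM over the uterus libraries and a 2-fold threshold (Python 3.11.15, numpy 2.4.6, scipy 1.17.1, pandas 2.3.3). Ratios and intervals were tested on simulated data. With 1 library per group, no count test was run; edgeR 4.0.16 and DESeq2 1.42.0 (R 4.3.3) gave only scaling factors for the alternatives. Shared 3′ ends were counted as exact 50-base stretches of the last 300 transcript bases in GENCODE M21. Promoters are from RefSeq.

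The members and the gene lists were chosen with earlier results of these data known, and support nothing independently. Named genes were every Sprr row, the 4 genes of each list past the minimum with the largest ratio of BPA against control, Ivl, Krt5, Krt14, Upk3a, Ltf, Pgr and Esr1, and the 10 genes nearest in pattern; part of these is described. Hoxa11, Myh11, Lor, Tgm1, Tgm3, Klf4, Elf5, Foxa1, Foxa2, Epcam, Upk3b and Krt20 fall outside this rule and were named after their values were seen. The same holds for Krtdap, S100a3, Krt4, Wnt4 and Cyp26a1.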

Additional observations from a re-analysis of the deposited data

Results flagged for a closer look

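For 4 members the ratio of KRG against no KRG went in opposite directions with and without BPA, with each counting interval on its own side of 1. For Sprr1a the log2 ratio was 0.72 with BPA and -2.61 without it, a difference of 3.33. The difference was 3.77 for Sprr2a2 (0.65 with BPA and -3.12 without), 3.82 for Sprr2a3 (0.66 and -3.16) and 1.82 for Sprr2b (0.69 and -1.13). These log2 ratios carry the pseudocount of 1 CPM, which shrinks those of low genes. From plain ratios the difference was 3.48 for Sprr1a, 4.17 for Sprr2a2, 4.93 for Sprr2a3 and 3.32 for Sprr2b, and with a pseudocount of 5 CPM it was 2.90, 2.89, 2.43 and 0.95 in the same order. Each value rests on 4 single libraries and the difference was not tested. Summed urothelial markers moved the same way, at 10677 CPM with BPA and KRG against 6186 CPM with BPA, and at 78.1 CPM with KRG against 360 CPM in control; their part in the difference was not tested.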

How the results depend on the processing

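Alternatives were TMM and DESeq2 scaling, totals without Rn45s, pseudocounts of 0.25 and 5 CPM, a minimum of 5 CPM or none, thresholds of 1.5- and 4-fold, and sums without Sprr2a2 and Sprr2a3 or without Sprr1a, the member with the most counts. No value reversed, and 69 of 72 counts of members stayed within 1.5 times of the main one. At 1.5-fold, 1 member (in place of 0) was lower with BPA against control, 1 (in place of 0) was higher with KRG against control, and 4 (in place of 0) were higher with BPA and KRG against BPA. The share of all genes past 1.5-fold is not given here, so nothing is read from these counts. With KRG against control, 3 members (in place of 4) were lower with the pseudocount of 5 CPM and at 4-fold, without Sprr2b. The log2 ratio of the summed members moved beyond its counting interval in 14 of 28 cases. With BPA against control it was 2.89, and 2.37 without Sprr2a2 and Sprr2a3 and 2.40 without Sprr1a. With BPA and KRG against KRG it was 5.12, and 5.04 with TMM, DESeq2 scaling or the pseudocount of 5 CPM, 4.30 without Sprr2a2 and Sprr2a3 and 4.30 without Sprr1a. With KRG against control it was -1.58, and -1.45 with TMM and with DESeq2 scaling, -1.27 without Sprr2a2 and Sprr2a3 and -1.30 without Sprr1a. With BPA and KRG against BPA it was 0.66, and 0.74 with TMM, 0.75 with DESeq2 scaling and 0.60 without Sprr1a. Of the ratios of single members, 31 of 120 moved beyond their counting interval and 0 reversed. TMM changed the share of genes past 2-fold with KRG against control to 3.47% higher and 1.98% lower. No paired analysis was possible because each group holds 1 library, and for the same reason no library could be left out. Depth limits Sprr2d, Sprr2e and Sprr2h most, with 0 to 8 counts in a library.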

Other observations

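Sprr3 and Sprr2k, which are outside the described members, had 3 and 2 counts in the BPA uterus library and 0 in the other uterus libraries. Ivl per count of Sprr1a was 0.536 with BPA and KRG, 0.460 with BPA, 0.114 with KRG and 0.193 in control. Sprr2f per count of Ltf was 0.491 with BPA and KRG, 0.433 with BPA, 0.231 with KRG and 0.112 in control, so that within the libraries Ltf was the further of the pair below its control level. Slpi, a secreted protease inhibitor on the NRF2 target list, was at 4.66 CPM with BPA and KRG, 5.03 CPM with BPA, 6.31 CPM with KRG and 53.9 CPM in control.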
